A study of Mus musculus with 6 samples.

Results

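Gfap, Vim, Nes, Synm, and Plec encode the intermediate filament proteins of astrocytes and a linker that ties such filaments to the rest of the cell. They were 5 of the 22180 genes that had a transcript cluster with a single gene symbol on the arrays. For each gene the transcript cluster with the highest mean over the 6 arrays was taken. The genes were listed with earlier results of these data in view and the row of each was chosen by its level, so their levels are a description, and the tests below are not independent evidence.

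Hippocampal RNA of female mice, 6 months of age, was hybridized to GeneChip arrays (Mouse Gene 2.0 ST). There were 3 mice with the genotype App[NL-G-F/NL-G-F] combined with Mutyh-/- (NL-G-F·*Mutyh* mice) and 3 wild-type mice. NL-G-F·*Mutyh* mice carry a humanized amyloid-β sequence with the Swedish, Beyreuther/Iberian, and Arctic mutations in both copies of *App*, driven by its own promoter, and lack both copies of *Mutyh*, which encodes a DNA glycosylase that removes adenine opposite 8-oxoguanine. Both parent lines had been backcrossed to C57BL/6J. The wild-type arrays came from an earlier series, and mice carrying the *App* alleles with intact *Mutyh* were not analysed here, so effects of the *App* alleles, of *Mutyh* loss, and of the series cannot be told apart.

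Intermediate filaments are rope-like polymers that give a cell mechanical strength. In astrocytes GFAP and vimentin form the polymer, and nestin and synemin, which do not form filaments by themselves, are built into it. Plectin is a giant cytolinker that joins the filaments to actin, microtubules, and membrane anchors. Astrocytes around amyloid plaques are known for high GFAP, and vimentin, nestin, and synemin are known to be re-expressed in some reactive astrocytes. Vimentin is also made by blood vessels and ependyma, nestin by neural stem cells and vessels, and plectin by most cell types, so a whole-hippocampus signal of these genes does not belong to astrocytes alone.

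*Gfap* lies on chromosome 11 (102887336 to 102897200), *Vim* on chromosome 2 (13574311 to 13582826), *Nes* on chromosome 3 (87971093 to 87980451), *Synm* on chromosome 7 (67730161 to 67759742), and *Plec* on chromosome 15 (76170974 to 76231378) of GRCm38.p6 in the RefSeq annotation. RefSeq windows from 250 bases before to 50 bases after the gene start were at hand for 4 of the 5 genes. The windows of *Gfap* (chr11:102897151-102897450, minus strand) and *Vim* (chr2:13574061-13574360, plus strand) are shown because *Gfap* lay above wild type and its partner *Vim* did not, and because *Stat3*, described below, encodes a factor known to drive *Gfap*. Capitals mark matches to the STAT motif TTCNNNGAA, which reads the same on both strands.
Gfap: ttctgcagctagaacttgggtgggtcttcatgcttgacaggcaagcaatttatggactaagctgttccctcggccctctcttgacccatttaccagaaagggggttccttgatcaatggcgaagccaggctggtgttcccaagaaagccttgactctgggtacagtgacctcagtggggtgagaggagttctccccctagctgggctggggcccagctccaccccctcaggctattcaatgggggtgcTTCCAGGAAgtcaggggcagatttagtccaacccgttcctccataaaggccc
Vim: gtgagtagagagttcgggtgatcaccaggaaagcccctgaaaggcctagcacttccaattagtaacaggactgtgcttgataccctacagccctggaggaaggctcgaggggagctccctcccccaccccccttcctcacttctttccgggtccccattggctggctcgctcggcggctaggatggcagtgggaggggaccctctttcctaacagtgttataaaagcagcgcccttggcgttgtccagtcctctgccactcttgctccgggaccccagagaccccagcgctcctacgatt
The *Gfap* window held 1 such match, TTCCAGGAA, at bases 249 to 257 across the gene start, and the windows of *Vim*, *Nes*, and *Synm* held none. The motif occurs in 8.3% of 32851 RefSeq windows of 300 bases. The TTGGC site of nuclear factor I, searched on both strands, occurred 2 times in the *Vim* window, 1 time in the *Synm* window, and not in those of *Gfap* and *Nes* (46.7% of all windows). The TATA box letters TATAAA, searched on both strands, were in the *Vim* window alone of the 4 (13.6% of all windows). These matches describe letters and not bound sites.

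The deposited values were log2 signals, and a transcript cluster was tested where the mean of 1 or both groups reached an intensity of 50 (5.64 on the log2 scale), which 21159 of 41345 did. Medians of the arrays ran from 7.19 to 7.21 over tested transcript clusters and from 5.55 to 5.66 over all transcript clusters. *Mutyh* itself was 5.37, 5.46, and 5.42 in NL-G-F·*Mutyh* mice and 5.44, 5.11, and 5.28 in wild-type mice, which is below the minimum throughout and cannot serve as a check of the genotype. The groups differed in how often replicates held the very same value. All 3 NL-G-F·*Mutyh* arrays were equal in 619 transcript clusters and all 3 wild-type arrays in 1, and at least 2 were equal in 4834 (11.7%) and 122 (0.295%). Any 2 arrays from different groups were equal in at most 3. Whether the groups had been summarized together is not given in the sources used here, and its part in the results was not tested. The wild-type averages printed in the paper for *C1qc* and *Cd68* lie above all deposited wild-type values. Percentages of wild type given here, that of *Gfap* included, can thus differ from those in print. Of the filament genes, *Nes* had 3 equal values.

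*Gfap* was higher in all NL-G-F·*Mutyh* mice than in any wild-type mouse. Its log2 signal was 10.54, 10.57, and 10.49 in NL-G-F·*Mutyh* mice, against 9.89, 9.74, and 9.95 in wild-type mice. The groups were 0.54 apart at their nearest values, which is more than the range of 0.08 within NL-G-F·*Mutyh* mice and of 0.22 within wild-type mice. The means were 10.53 ± 0.04 in NL-G-F·*Mutyh* mice and 9.86 ± 0.11 in wild-type mice (SD, n = 3 each). This was 159.8% wild type, with a 95% interval of 140.1% to 182%, and *Gfap* was number 18 of 21159 by *p* and number 135 by the size of a higher signal. The adjusted *p* of limma over all transcript clusters was 0.0857 (unadjusted *p* = 7.45e-05), so *Gfap* did not pass it. It passed when the test was held to transcript clusters with 1 gene symbol (adjusted *p* = 0.0239) or when arrays were weighted (adjusted *p* = 0.0294), and the adjusted *p* ran up to 0.375 over 17 alternatives while the log2 difference stayed between 0.62 and 0.73. None of the 4 tested filament and linker genes was called at an adjusted *p* under 0.05, where 0.0614% of all tested transcript clusters were (0.0567% higher and 0.00473% lower).

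**Figure D1:**
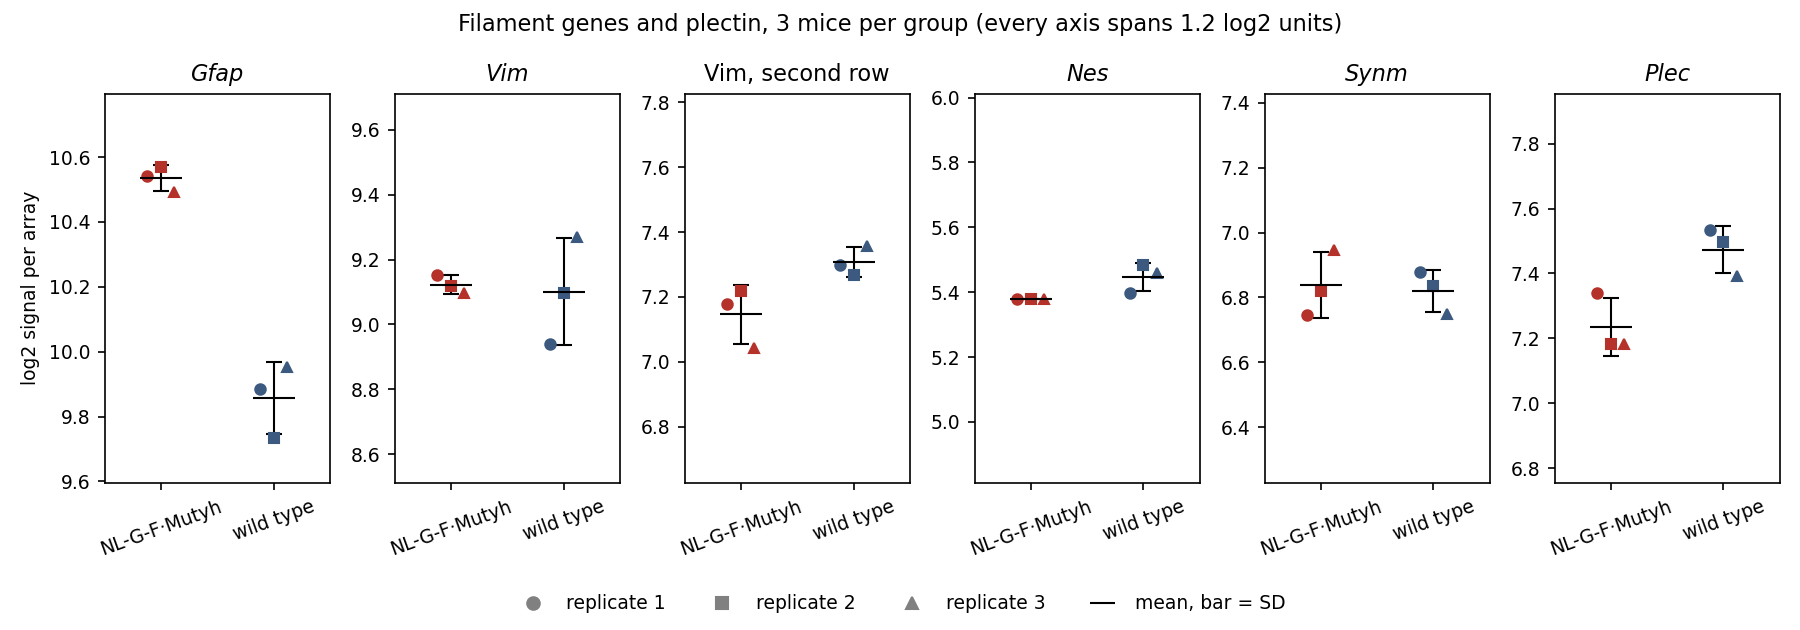
Log2 signal (vertical axis) of the filament genes, the second *Vim* transcript cluster, and *Plec* in each array, with NL-G-F·Mutyh mice left and wild-type mice right. Horizontal bars are means and error bars are SD (n = 3 each). *Gfap* sits between 10.49 and 10.57 in NL-G-F·Mutyh mice, above all wild-type values, and *Plec* sits between 7.18 and 7.34, below all of them.

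*Vim*, encoding the partner filament protein vimentin, lay at the wild-type level. Its log2 signal was 9.15, 9.12, and 9.10 in NL-G-F·*Mutyh* mice, against 8.94, 9.10, and 9.27 in wild-type mice. All values of NL-G-F·*Mutyh* mice lay inside the wild-type range. The means were 9.12 ± 0.03 in NL-G-F·*Mutyh* mice and 9.10 ± 0.17 in wild-type mice, a log2 difference of 0.02 (95% interval −0.21 to 0.25; limma, adjusted *p* = 0.944), or 101% wild type with bounds of 86.7% and 119%. The SD of *Vim* was above that of 10.4% of tested transcript clusters in NL-G-F·*Mutyh* mice and of 68.1% in wild-type mice. Wild-type replicate 1, the lowest for *Vim*, was also the lowest of all arrays for the choroid plexus genes *Ttr* (11.56, against 13.34 and 13.55 in the other wild-type mice) and *Kl* (8.07, against 9.70 and 10.44). Among NL-G-F·*Mutyh* mice, replicate 2 was the lowest for *Ttr* (12.51, against 13.47 and 13.33) and *Kl* (8.78, against 10.15 and 9.82). Its *Vim* value of 9.12 was the middle one of that group. The part of this tissue in the *Vim* signal was not tested. Without wild-type replicate 1 the log2 difference of *Vim* was −0.06 (adjusted *p* = 0.747).

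A second transcript cluster of *Vim* had the lower mean of the pair and did not follow the first. It was 7.18, 7.22, and 7.04 in NL-G-F·*Mutyh* mice, against 7.30, 7.27, and 7.36 in wild-type mice. Here all NL-G-F·*Mutyh* values lay below all wild-type values, by 0.05 at the nearest pair. The log2 difference was −0.16 (standard error 0.08; limma, adjusted *p* = 0.397, unadjusted *p* = 0.0695), or 89.4% wild type. The mean of both transcript clusters gave −0.07 (adjusted *p* = 0.711), so the sign for *Vim* depended on the transcript cluster.

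*Nes*, encoding nestin, and *Synm*, encoding synemin, lay close to wild type. *Nes* read 5.38 in all 3 NL-G-F·*Mutyh* mice, against 5.40, 5.48, and 5.46 in wild-type mice. These values were below the intensity minimum in both groups and were not tested, the equal values leave no spread in NL-G-F·*Mutyh* mice, and the gap to the lowest wild-type value was 0.02. *Synm* was 6.75, 6.82, and 6.95 in NL-G-F·*Mutyh* mice, against 6.88, 6.83, and 6.75 in wild-type mice. The groups overlapped, with NL-G-F·*Mutyh* replicate 3 the highest of all. The log2 difference of *Synm* was 0.02 (95% interval −0.17 to 0.21; limma, adjusted *p* = 0.944), or 101% wild type with bounds of 88.6% and 116%. Its sign turned without NL-G-F·*Mutyh* replicate 3 (−0.04) or wild-type replicate 3 (−0.02).

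*Plec*, encoding plectin, was lower in all NL-G-F·*Mutyh* mice than in any wild-type mouse, and thus lay on the other side of wild type from *Gfap*. It was 7.34, 7.18, and 7.18 in NL-G-F·*Mutyh* mice, against 7.53, 7.50, and 7.39 in wild-type mice. The nearest values of the groups were 0.05 apart, less than the range within either group (0.16 in NL-G-F·*Mutyh* mice and 0.14 in wild-type mice). The means were 7.24 ± 0.09 in NL-G-F·*Mutyh* mice and 7.47 ± 0.07 in wild-type mice, a log2 difference of −0.24 (95% interval −0.43 to −0.05), or 84.8% wild type. *Plec* did not pass the adjusted test (limma, adjusted *p* = 0.300, unadjusted *p* = 0.0205). The difference kept its sign over 17 alternatives, from −0.29 to −0.21, and none of them gave a call (lowest adjusted *p* = 0.149). A transcript cluster annotated to both *Parp10* and *Plec* was 5.54, 5.68, and 5.60 in NL-G-F·*Mutyh* mice, against 5.68, 5.80, and 5.75 in wild-type mice, so its groups overlapped (log2 difference −0.14, adjusted *p* = 0.453), and the NL-G-F·*Mutyh* mean was below the intensity minimum.

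Of the 4 tested genes, 1 (*Gfap*) was higher and 1 (*Plec*) lower with an unadjusted *p* under 0.05 and no overlap between the groups. Over all tested transcript clusters 13.6% passed that *p* (8.88% higher and 4.75% lower), and 22.0% did not overlap (13.9% higher and 8.11% lower). This split moved with the scaling of the arrays. Of the transcript clusters past that *p*, 65.1% were higher as deposited and 51.1% after quantile scaling. The share was 39.8% when arrays were set to equal medians over all transcript clusters, those below the intensity minimum included. With equal medians over tested transcript clusters it was 62.6%, close to the share as deposited. *Gfap* stayed above and *Plec* below wild type under each of these scalings.

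Within arrays, the *Gfap* signal minus that of each partner was higher in all NL-G-F·*Mutyh* mice than in any wild-type mouse. Since signals of different transcript clusters cannot be set against each other as levels, only the shift of the log2 *Gfap* signal minus the partner signal between the groups is read here. *Gfap* minus *Vim* was 1.39, 1.45, and 1.40 in NL-G-F·*Mutyh* mice, against 0.95, 0.64, and 0.68 in wild-type mice, a shift of 0.66 (standard error 0.10). *Gfap* minus *Synm* was 3.79, 3.75, and 3.54 in NL-G-F·*Mutyh* mice, against 3.01, 2.90, and 3.20 in wild-type mice, a shift of 0.66 (standard error 0.12). *Gfap* minus *Plec* shifted most, being 3.20, 3.39, and 3.31 in NL-G-F·*Mutyh* mice, against 2.35, 2.24, and 2.56 in wild-type mice, a shift of 0.91 (standard error 0.11). *Gfap* minus *Nes*, with *Nes* below the intensity minimum, shifted by 0.75 (standard error 0.08). The groups did not overlap for any of the 4 pairs, and the nearest values were 0.34 (*Synm*) to 0.64 (*Plec*) apart. Each shift is the log2 difference of *Gfap* less that of the partner. All 4 therefore hold the same *Gfap* difference and are not separate evidence. With 1 array left out or the arrays scaled otherwise, the shifts ran from 0.60 to 0.75 for *Vim*, 0.59 to 0.74 for *Synm*, 0.67 to 0.79 for *Nes*, and 0.84 to 1.00 for *Plec*. No test is given, as *Gfap* and its partners were chosen with their differences known.

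**Figure D2:**
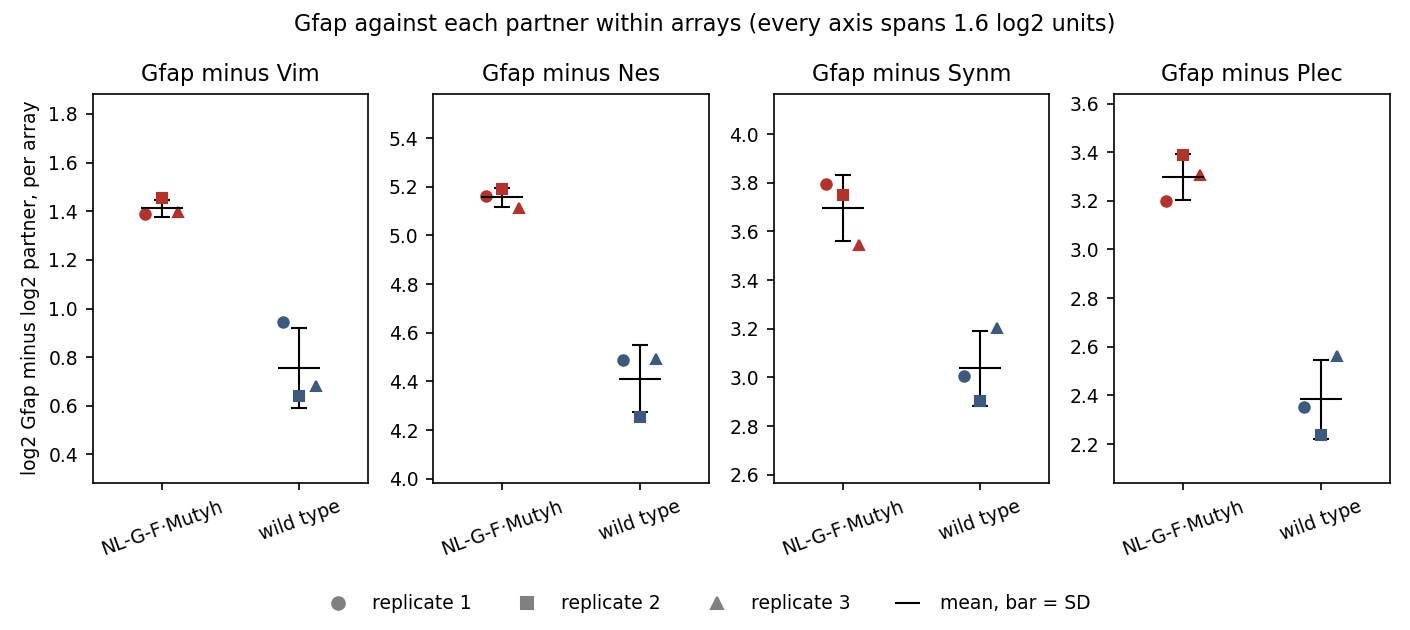
Log2 signal of *Gfap* minus that of each partner in each array (vertical axis), with NL-G-F·Mutyh mice left and wild-type mice right. Horizontal bars are means and error bars are SD (n = 3 each). In each panel all NL-G-F·Mutyh values lie above all wild-type values, by 0.34 to 0.64 at the nearest pair.

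The genes nearest to *Gfap* over the 6 arrays included genes of microglia, of complement, and of reactive astrocytes, and none was a filament partner. Nearness was the root mean square difference between mean-centred log2 signals over 6 arrays, among 13306 other tested genes, and it says nothing of shared control. *Itgax*, encoding the integrin CD11c of myeloid cells, was nearest (0.07) and was 5.80, 5.78, and 5.66 in NL-G-F·*Mutyh* mice, against 5.15, 5.11, and 5.28 in wild-type mice, where it lay below the intensity minimum. *C4b*, encoding complement component C4 and with a near-identical neighbour gene whose RNA cannot be told apart here, was 8.06, 8.02, and 7.99 in NL-G-F·*Mutyh* mice, against 7.24, 7.06, and 7.39 in wild-type mice. *Serpina3n*, encoding a secreted protease inhibitor of reactive astrocytes, was 10.72, 10.83, and 10.69 in NL-G-F·*Mutyh* mice, against 10.20, 10.02, and 10.05 in wild-type mice. As with *Gfap*, the highest of the 3 NL-G-F·*Mutyh* mice was replicate 2 for *Serpina3n*, while for the rest of the 5 nearest genes it was replicate 1. *C1qc*, encoding a chain of complement C1q of microglia, and *Cyp7b1*, encoding an oxysterol hydroxylase, came next at 174% and 149.6% wild type. None of the 5 passed the adjusted test (limma, adjusted *p* = 0.0609 for *C1qc* to 0.117 for *Cyp7b1*). In the same order *Vim* was number 5972, *Synm* number 6584, and *Plec* number 12324.

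**Figure D3:**
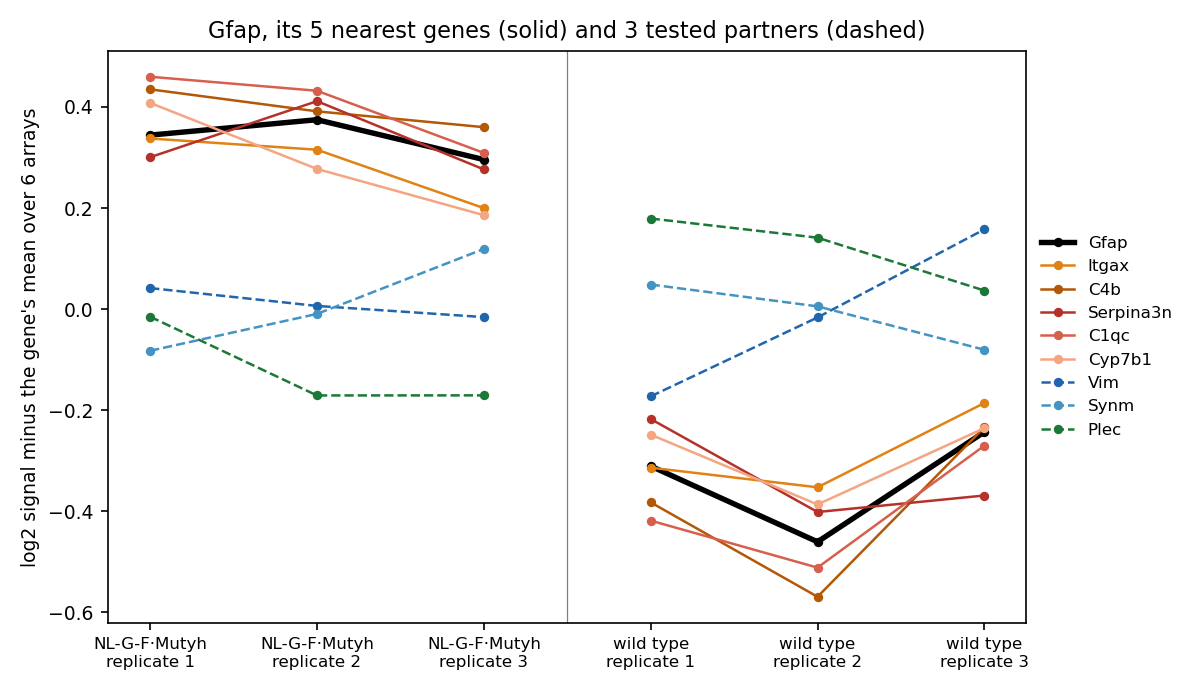
Log2 signal minus the mean of the gene over 6 arrays (vertical axis) for *Gfap* (black), its 5 nearest genes (solid) and the 3 tested partners (dashed) in each array, with NL-G-F·Mutyh mice left and wild-type mice right. Lines only join the points of a gene within a group. *Gfap* and its nearest genes are above 0 in all NL-G-F·Mutyh mice and below 0 in all wild-type mice, which holds for none of the partners.

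The other filament genes had different nearest genes. For *Vim* they were *Prdm1*, encoding a transcriptional repressor (root mean square difference 0.02), and *Atp13a3*, encoding a transport ATPase of endosomes (0.02). For *Synm* they were *Gm9736* (0.009) and *Wdr17* (0.01), and for *Nes*, which was not tested itself, *Brd3*, encoding a reader of acetylated histones (0.01), and *Ppm1b*, encoding a protein phosphatase (0.01). For *Plec* they were *Gaa*, encoding the lysosomal acid α-glucosidase (0.03), and *Zxdc* (0.03), at 87.5% and 87.0% wild type. Genes with small differences are near to many others, so for *Vim*, *Synm*, and *Nes* the order carries little beyond the lack of a shared shift.

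Among 18 tested genes known to control *Gfap* transcription, the ones with the smallest *p* were *Stat3* and *Osmr*. *Stat3*, encoding the transcription factor that carries the signal of interleukin-6 type cytokines, was 8.92, 8.96, and 8.71 in NL-G-F·*Mutyh* mice, against 8.62, 8.45, and 8.55 in wild-type mice. The groups did not overlap, and the log2 difference was 0.32 (standard error 0.09; limma, adjusted *p* = 0.257). *Osmr*, encoding the receptor for the STAT3-activating cytokine oncostatin M, was 7.15, 7.18, and 7.51 in NL-G-F·*Mutyh* mice, against 6.85, 6.93, and 7.00 in wild-type mice (127.9% wild type, adjusted *p* = 0.281). *Cntfr*, encoding the ciliary neurotrophic factor receptor, was at 117% (adjusted *p* = 0.372) and *Nfib*, encoding a nuclear factor I protein of astrocyte differentiation, at 112% (adjusted *p* = 0.393), both without overlap. In contrast *Sox9*, encoding a glial transcription factor, was at 94.8%, the shared receptor chain gene *Il6st* at 101.4%, and *Socs3*, encoding a feedback inhibitor induced by STAT3, at 94.1%. Of the 18 genes none passed the adjusted test, and 2 were higher and none lower at an unadjusted *p* under 0.05. Without overlap 5 were higher and 1 lower (*Lifr*, at 92.9%). Over all tested transcript clusters 8.88% were higher and 4.75% lower at that *p*, and 13.9% were higher and 8.11% lower without overlap. The median log2 difference of the list was 0.01, beside 0.02 over all tested transcript clusters.

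Other intermediate filament proteins showed no common direction. The neurofilament gene *Nefm* was 8.42, 8.51, and 8.45 in NL-G-F·*Mutyh* mice, against 8.51, 7.80, and 8.32 in wild-type mice, so that its 119% wild type rested on the single low wild-type replicate 2. *Nefl*, encoding the light neurofilament chain, was at 106.9% and *Lmna*, encoding the nuclear lamins A and C, at 92.8%. *Bfsp2*, encoding a beaded filament protein of the lens, was lower without overlap (84.0%; log2 difference −0.25, adjusted *p* = 0.261). Of 10 tested genes none passed the adjusted test, *Bfsp2* alone had an unadjusted *p* under 0.05, and the median log2 difference was 0.02.

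Of the other plakins, the family of plectin, none was lower at an unadjusted *p* under 0.05. *Dsp*, encoding desmoplakin, which ties intermediate filaments to desmosomes, was 8.53, 8.25, and 7.78 in NL-G-F·*Mutyh* mice, against 7.50, 7.47, and 7.92 in wild-type mice. The groups overlapped, and the log2 difference was 0.56 (standard error 0.21; limma, adjusted *p* = 0.335). *Evpl*, encoding envoplakin, held the same value of 5.89 in all 3 NL-G-F·*Mutyh* mice and was 5.76, 5.52, and 5.66 in wild-type mice, whose mean was below the intensity minimum, so that it entered the test only through the group where it was higher. *Dst* and *Ppl*, encoding dystonin and periplakin, were at 96.9% and 98.3%. Of 5 tested plakins none passed the adjusted test, *Dsp* alone of those above the minimum in both groups had an unadjusted *p* under 0.05, and the median log2 difference, *Evpl* included, was 0.03.

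Genes of the membrane anchors to which synemin and plectin bind lay on both sides of wild type, dystrobrevins included. *Dtna*, encoding α-dystrobrevin of the dystrophin complex at astrocyte endfeet, was 10.15, 10.15, and 9.92 in NL-G-F·*Mutyh* mice, against 9.87, 9.84, and 9.92 in wild-type mice (115% wild type, adjusted *p* = 0.376). *Dtnb*, encoding its relative β-dystrobrevin, was 8.50, 8.56, and 8.46 in NL-G-F·*Mutyh* mice, against 8.69, 8.67, and 8.67 in wild-type mice (88.7%, adjusted *p* = 0.328). *Dtna* lay above and *Dtnb* below wild type without overlap, though the nearest *Dtna* values of the groups are the same when rounded. The sarcoglycan genes *Sgcb* and *Sgce* were at 119% and 90.6%. Of 14 tested anchors none passed the adjusted test, 1 was lower at an unadjusted *p* under 0.05 (*Dtnb*), and the median log2 difference was 0.04.

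Among actin and focal contact partners, *Msn*, encoding moesin, which joins actin to the membrane and is abundant in microglia and vessels, was 8.25, 8.24, and 8.40 in NL-G-F·*Mutyh* mice, against 7.95, 7.96, and 8.07 in wild-type mice (123% wild type; limma, adjusted *p* = 0.224). *Zyx*, encoding the focal contact protein zyxin, was 7.59, 7.60, and 7.40 in NL-G-F·*Mutyh* mice, against 7.76, 7.72, and 7.73 in wild-type mice (86.7%, adjusted *p* = 0.340). *Actn1* and *Flna*, encoding the actin crosslinkers α-actinin-1 and filamin A, were at 112% and 82.3% with overlap. Of 11 tested genes none passed, 1 was higher and 1 lower at an unadjusted *p* under 0.05, and the median log2 difference was 0.004.

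Of 10 tested chaperones and enzymes that act on filaments, 5 were higher and 5 lower by sign. *Padi2*, encoding a deiminase that citrullinates GFAP and myelin basic protein, was 7.61, 7.93, and 7.54 in NL-G-F·*Mutyh* mice, against 8.17, 7.89, and 8.05 in wild-type mice (79.0% wild type; limma, adjusted *p* = 0.328). *Ppp1ca*, encoding a catalytic subunit of protein phosphatase 1, was 10.05, 10.05, and 9.88 in NL-G-F·*Mutyh* mice, against 10.22, 10.28, and 10.21 in wild-type mice (84.5%, adjusted *p* = 0.280). *Cryab*, encoding the small heat shock protein αB-crystallin that binds GFAP, was at 86.5% with overlap, and *Rock1*, encoding a kinase of GFAP and vimentin, at 117%. Of 10 tested genes none passed, 2 were lower and none higher at an unadjusted *p* under 0.05, and the median log2 difference was −0.01. *Padi2* and *Cryab* are also made by oligodendrocytes. Of 7 tested oligodendrocyte markers, 3 (*Mbp*, *Mog*, and *Cnp*) were lower at an unadjusted *p* under 0.05 and without overlap. Over all tested transcript clusters 4.75% were lower at that *p* and 8.11% were lower without overlap. By sign 5 of the 7 were lower and 2 higher (*Mobp* at 110.9% and *Ermn* at 103.6%). The median was −0.15, and the summed intensity was 4957 to 5797 in NL-G-F·*Mutyh* mice and 5046 to 5832 in wild-type mice. The part of oligodendrocytes in the values of *Padi2* and *Cryab* was not tested.

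**Figure D4:**
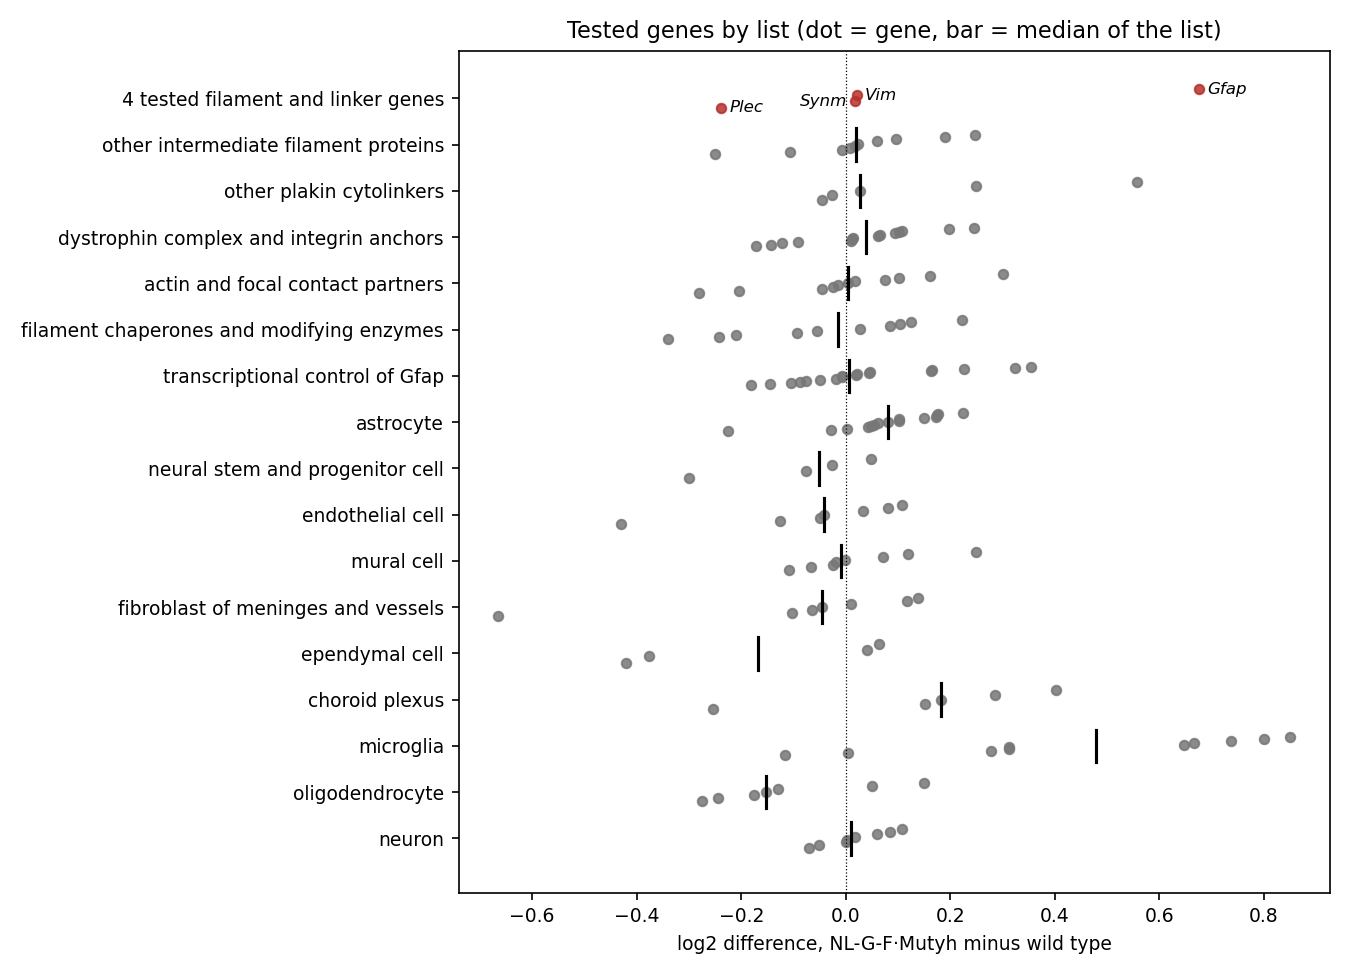
Log2 difference, NL-G-F·Mutyh minus wild type (horizontal axis), of each tested gene, with Gfap, Vim, Synm, and Plec in the top row and a row for each list below. Each dot is a gene and each bar is the median of a list. *Gfap* is at 0.68 and *Plec* at −0.24, and the medians of the 6 filament-related lists lie between −0.01 and 0.04.

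Markers of astrocytes and of other cell types give the setting for the *Gfap* signal. All 15 astrocyte markers were above the intensity minimum. Their summed intensity was 18626 to 19098 in NL-G-F·*Mutyh* mice and 17498 to 18479 in wild-type mice, without overlap. The median log2 difference was 0.08, beside 0.02 over all tested transcript clusters. By sign 13 of the 15 were higher and 2 lower, beside 12017 higher and 9142 lower of 21159 tested transcript clusters. Without overlap 4 of the 15 were higher and 1 lower, beside 13.9% higher and 8.11% lower over all tested transcript clusters. *Aldh1l1*, encoding a folate enzyme widely used as an astrocyte marker, was 7.24, 6.96, and 7.23 in NL-G-F·*Mutyh* mice, against 7.46, 7.38, and 7.27 in wild-type mice (85.6% wild type; limma, adjusted *p* = 0.385). The gap junction gene *Gjb6* was at 113% (adjusted *p* = 0.338), the bicarbonate transporter gene *Slc4a4* at 113% (adjusted *p* = 0.397), and *Aqp4*, encoding aquaporin-4, at 117% (adjusted *p* = 0.443). *Gjb6* alone of the 15 had an unadjusted *p* under 0.05. In whole hippocampus a larger number of cells of a type and more RNA per cell cannot be told apart.

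Most microglial markers were higher in the same mice as *Gfap*. The summed intensity of the markers was 3286 to 3624 in NL-G-F·*Mutyh* mice and 2409 to 2534 in wild-type mice, and the median log2 difference was 0.48. Of 10 tested markers 8 were higher without overlap, beside 13.9% of all tested transcript clusters. *Cx3cr1* was at 100.3% and *Tmem119* at 92.3% wild type, both with overlap. *Cd68*, encoding a lysosomal protein of phagocytes, rose and was the 1 marker past the adjusted test (8.68, 8.71, and 8.68 in NL-G-F·*Mutyh* mice, against 7.84, 7.88, and 7.80 in wild-type mice; limma, adjusted *p* = 0.0170). *C1qb* and *Tyrobp*, encoding a chain of C1q and a signalling adaptor, were at 159% and 157% (adjusted *p* = 0.0977 and 0.150). The part of microglia in the *Gfap* value was not tested.

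Markers of other cells known to make vimentin or nestin, and of neurons and choroid plexus, had median log2 differences between −0.17 and 0.18, and their part in the signals of *Vim* and *Nes* was not tested. Of 4 tested neural stem and progenitor cell markers, *Dcx*, encoding doublecortin of newborn neurons, was at 81.3% (adjusted *p* = 0.345) without overlap, *Sox2* at 94.8%, *Prom1* at 98.2%, and *Hopx* at 103% (median −0.05). Of 7 endothelial markers, *Cldn5*, encoding the tight junction protein claudin-5, was lower in all NL-G-F·*Mutyh* mice (6.85, 6.94, and 6.81) than in wild-type mice (7.01, 7.48, and 7.41; adjusted *p* = 0.274), while *Pecam1* was at 106%, *Slco1a4* at 108%, and *Tek* at 91.6% (median −0.04). None of 8 mural cell markers had an unadjusted *p* under 0.05, with *Acta2* at 119%, *Myh11* at 109%, *Vtn* at 105%, and *Kcnj8* at 92.8% (median −0.01). Of 7 fibroblast markers none did, with *Dcn* at 63.1% and ranging from 7.85 to 9.50 in NL-G-F·*Mutyh* mice, *Pdgfra* at 93.1%, *Col3a1* at 95.6%, and *Col1a1* at 109% (median −0.04). Of 4 ependymal markers, *Foxj1*, encoding a transcription factor of motile cilia, was at 77.1% without overlap (adjusted *p* = 0.277), and *Tmem212* was at 74.7%, *Ccdc153* at 103%, and *Dynlrb2* at 105% (median −0.17). The 5 choroid plexus genes varied more among mice than between groups, with a summed intensity of 6577 to 13237 in NL-G-F·*Mutyh* mice and 3529 to 14326 in wild-type mice (median 0.18; *Ttr* 122%, *Kcne2* 132%, *Folr1* 83.8%, and *Kl* 113%). Of 8 neuron markers none had an unadjusted *p* under 0.05 (median 0.01; *Map2* 107.7%, *Gad2* 104%, *Syt1* 96.5%, and *Gad1* 95.3%).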

How the data were processed

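The authors put their array files through Transcriptome Analysis Console 4.0, arrays of mice with the *App* alleles and intact *Mutyh* included. The deposited values of the 6 hippocampi are log2 signals per transcript cluster. Wild-type averages that the paper prints for *C1qc* and *Cd68* lie above all deposited wild-type values. Whether the deposited values are those of that run is therefore not known. Sources used here name neither the summarization and normalization nor the build. The values were used as deposited. Gene symbols came from the GEO platform annotation, with 1 symbol for 23521 of 41345 transcript clusters, several for 1820, and none for 16004. Groups were taken from the sample titles and compared with limma 3.58.1 in R 4.3.3 over 21159 transcript clusters with a mean intensity of at least 50 in 1 or both groups, with Benjamini-Hochberg adjustment over all of them and a call at an adjusted *p* under 0.05. Intervals and standard errors of single genes are moderated by limma, and those of *Gfap* minus a partner are ordinary standard errors of a difference between means. The call was tested on simulated data. The genes and the 16 lists (6 of filament-related functions, 10 of cell types, from textbook knowledge) were chosen with earlier results of these data known. Named genes are the 5 filament genes, up to 4 genes of each list with the smallest *p* and any past the adjusted test, the 5 genes nearest to *Gfap*, and the 2 nearest to each other gene. *Ttr* and *Kl* of single mice beside *Vim*, and *Sox9*, *Il6st*, *Socs3*, *Lifr*, *Cx3cr1*, *Tmem119*, *Mobp*, and *Ermn*, were chosen after their values were seen. Of 166 list genes, 11 had no transcript cluster with a single symbol. Summed intensities add 2 to the power of each log2 signal. The number of arrays limits the precision, and an exact permutation test of 3 against 3 cannot go below 0.1. The alternatives dropped the intensity minimum or asked it of both groups, kept single-symbol rows, rescaled the arrays, used trended robust moderation or array weights, blocked on replicate number, omitted single arrays, averaged a gene's rows, and, added after the data were seen, tied transcript clusters left out.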

Additional observations from a re-analysis of the deposited data

How the results depend on the processing

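The difference of *Gfap* kept its direction under 17 alternatives. It passed the adjusted test with transcript clusters of 1 symbol (0.68) and with array weights (0.73), and ran from 0.62 to 0.72 with 1 array left out. *Plec* kept its direction, with −0.29 to −0.21 with 1 array left out. *Vim* turned to −0.013 after quantile normalization and to −0.028 when arrays were set to equal medians over all transcript clusters. *Vim* turned to −0.071 as the mean of its rows and ran from −0.060 to 0.11 with 1 array left out. *Synm* turned to −0.0041 after quantile normalization and to −0.031 at equal medians, and *Synm* ran from −0.037 to 0.064 with 1 array left out. *Nes* became −0.12 under both of these scalings. The cause was not tested. With arrays set instead to equal medians over tested transcript clusters, *Vim* was 0.015, *Synm* 0.012, and *Nes* −0.075. The 13 transcript clusters past the adjusted test became 8 with the minimum in both groups, 43 with 1 symbol, 42 with array weights, and 2 to 3 with 1 array left out, where fewer arrays were fitted. Without the minimum, 5876 had an unadjusted *p* under 0.05 instead of 2883, over more transcript clusters. With tied transcript clusters left out, a setting chosen after seeing the data, 14 passed, and *Gfap* kept an adjusted *p* of 0.0797.

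With the replicate number as a block, 2 transcript clusters passed and *Gfap* had an adjusted *p* of 0.375. The labels give same-numbered mice no more in common than the number. Their deviations from the group means correlated at −0.10, 0.02, and −0.06, which cannot show whether they shared handling or litter. Signals below the minimum, such as those of *Nes* and *Mutyh*, lie near background and show no small difference.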
